A study of Mus musculus with 64 samples.

Results

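The genes described here carry pyruvate into the mitochondrion, oxidise it to acetyl-CoA and turn the tricarboxylic acid (TCA) cycle. There are 33 of them, chosen by name for these roles, with earlier results of these data known, among the 16913 genes of the deposited count table, and each of the 33 was found in it. They were followed in hearts of C57BL/6J mice of either sex that were transgenic (TG) for cTnT-delta160E, a mutant cardiac troponin T, a model of hypertrophic cardiomyopathy, or non-transgenic (nTG). Trained mice ran high-intensity interval training (HIIT) on a treadmill for 6 weeks, on 3 days a week in sessions of 31 minutes, and sedentary mice did not exercise. Males numbered 7 nTG and 9 TG when sedentary and 8 nTG and 8 TG when trained, and females 8 and 8 when sedentary and 10 and 6 when trained. These sizes follow the sample labels, whereas the series description gives 7 to 9 samples for each group, a range that the trained females fall outside. All 64 libraries are described as whole heart tissue, with ribosomal RNA depleted. Levels of atrial genes differed widely between libraries, as given below, and how much atrium each library held was not tested. The promoter and founder line of the transgene and the age of the mice are not given in the sources used here.

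The columns of the gene table did not follow their names. Taken by name, 45 of 64 libraries contradicted their labelled sex or genotype in sex-linked genes or in Tnnt2, the gene of cardiac troponin T. Each library was therefore paired with the best-correlated gene column for its lncRNA column, over 389 autosomal transcripts held by both tables. This gave 64 different columns, best in both directions, with Pearson's r of 0.599 to 0.863 across transcripts, which are not independent replicates, against at most 0.404 for the next best column. After that, 0 of 64 libraries contradicted their labels, with Tnnt2 at 6538 CPM or more in TG and 3589 CPM or less in nTG hearts on the scale used below. CPM are counts per 1000000 of the library size after TMM scaling, whereas the label check used unscaled library sizes, with limits of 6903 and 3428. All values below use columns joined in this way, and with columns by name no member passed the threshold in any comparison.

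Pyruvate made from glucose or lactate enters mitochondria through a carrier of paired subunits (Mpc1, Mpc2). The pyruvate dehydrogenase (PDH) complex then commits it to acetyl-CoA, with kinases switching the complex off and phosphatases switching it on again. Citrate synthase joins acetyl-CoA to oxaloacetate, and the cycle that follows yields NADH, succinate oxidised by complex II, and a nucleoside triphosphate. The working heart is among the tissues richest in these enzymes, burns mainly fatty acids, and uses malate and aspartate shuttling by Mdh1, Mdh2, Got1 and Got2 to bring cytosolic NADH equivalents into mitochondria.

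Libraries held 34.6 to 67.1 M counts (median 48.0 M, with M for 1000000), and mitochondrially encoded genes took 13.4% to 20.4% of them. Some libraries stood apart in the members. Trained TG male 4 was the lowest of its group in 33 of 33 members, with a summed member level of 12361 CPM where its group had a median of 16513, and it also had the most fibroblast marker RNA of its group (1080 CPM) and 209 CPM of the atrial genes Myl7, Myl4 and Sln. Sedentary nTG male 5 was the lowest of its group in 29 members, with 239 CPM of these atrial genes, the highest of all libraries, and the most fibroblast marker RNA of its group (645 CPM). Sedentary nTG female 4 was the lowest of its group in 28 members, with 137 CPM of the atrial genes and the most fibroblast marker RNA of its group (832 CPM). In cardiomyocyte marker RNA, trained TG male 4, sedentary nTG male 5 and sedentary nTG female 4 were each the lowest of their group (42200, 52900 and 51600 CPM). Trained nTG female 6 was the highest of its group in 23 members and sedentary TG female 7 in 19. They had 63200 and 56800 CPM of cardiomyocyte marker RNA, at the top of the ranges of their groups. The atrial genes ranged from 1.36 to 239 CPM over all libraries and in each group the lowest library lay at 7.91 CPM or less and the highest at 43.0 or more. Sedentary TG male 5, the lowest of its group in 22 members, had 4600 CPM of haemoglobin and other red-cell genes, where the median of its group was 547 CPM. It also had the most fibroblast (869 CPM) and macrophage (253 CPM) marker RNA of its group. Its cardiomyocyte marker RNA was 46600 CPM, where the median of its group was 48690 CPM. The part of these markers in the member levels of single libraries was not tested. Counts are given below without all 6 of these libraries, and also without trained TG male 4, sedentary nTG female 4 and sedentary TG female 7, which lay apart from their groups in single members. Both sets were chosen from values of the members themselves, so counts without them describe the dependence on these mice and support no call.

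Per length of annotated exon, the members spanned a wide range of levels in sedentary nTG males. The highest were Idh2, the mitochondrial NADP-dependent isocitrate dehydrogenase, at 717 ± 55.9 CPM per kb (SD, n = 7), and Ogdh, the first subunit of the 2-oxoglutarate dehydrogenase complex, at 669.8 ± 39.7. These neighbours did not differ beyond their spread, and both stood well above Mdh1, the cytosolic malate dehydrogenase, at 299 ± 29.3, and Sdha, the flavoprotein of complex II, at 289 ± 22.9. Within the PDH complex the level per kb ran from 213 ± 13.0 for Pdha1 (E1 alpha) through 93.9 ± 7.40 for Pdhb (E1 beta), 82.8 ± 3.38 for Dlat (E2) and 52.4 ± 5.75 for Dld (E3) to 28.0 ± 1.94 for Pdhx, the E3-binding protein. Among the kinases, Pdk2 stood at 163 ± 13.8 CPM per kb and Pdk1 at 26.6 ± 1.31. The phosphatases were low, with Pdp2 at 12.3 ± 1.46 and Pdp1 at 7.86 ± 0.57 CPM per kb, and so was Idh1, the cytosolic isocitrate dehydrogenase, at 10.6 ± 0.98. For the matrix step from isocitrate, the NAD-dependent subunits Idh3b, Idh3g and Idh3a stood at 145 ± 9.89, 128 ± 7.89 and 65.7 ± 5.04 CPM per kb. Where an annotated gene has long 3' ends that hearts do not use, its level per kb is understated.

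**Figure D1:**
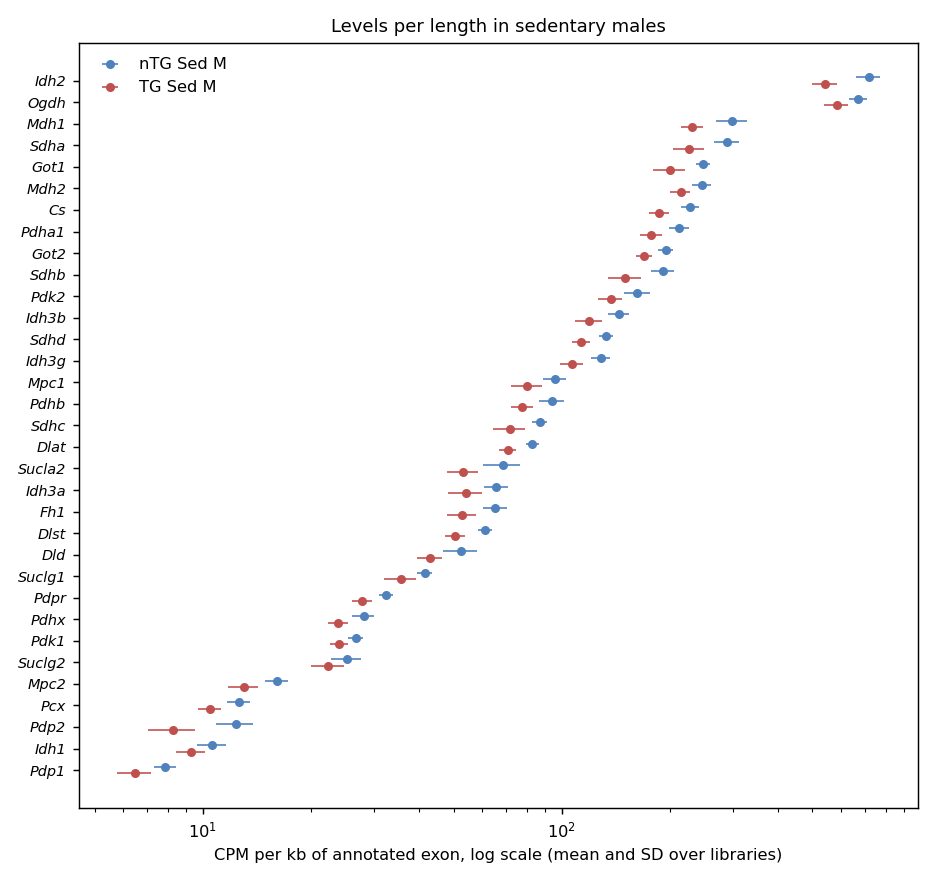
Levels of the 33 members in sedentary males as CPM per kb of annotated exon on a log axis, with the mean and SD over 7 nTG (blue) and 9 TG (red) libraries, ordered by the nTG level. Idh2 and Ogdh lead, Pdp2, Idh1 and Pdp1 are lowest, and the TG mean lies to the left of the nTG mean for each gene.

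The question of the main comparison is what the transgene changes. In sedentary males, 32 of the 33 members were lower in TG hearts and none was higher, where 11.2% of all genes were lower and 9.39% higher at an adjusted p under 0.05. The median log2 fold change of the members was −0.27, against −0.01 for all genes tested, and values ran from −0.58 for Pdp2 to −0.15 for Pdk1. Suclg2, the GTP-forming succinyl-CoA synthetase subunit, was the member that missed the threshold, at −0.17 ± 0.07 (adjusted p 0.0529). In trained males 13 members were lower and none higher (8.31% and 5.65% of all genes), with a median of −0.14. In sedentary females 9 were lower and none higher (2.78% and 1.58% of all genes), with a median of −0.13. In trained females 22 were lower and none higher (9.43% and 5.37% of all genes), with a median of −0.21.

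These 4 comparisons share no library. Over them, 128 of 132 fold changes of members lay below 0. Dlat, Pdp2, Cs, Dlst and Got1 were lower in all 4 (Dlat less firmly in sedentary females, as given below), as were 1.68% of all genes. A further 11 members were lower in 3, 7 in 2 and 9 in 1, against 2.51%, 4.32% and 8.89% of all genes. Averaged over sex and activity, 32 members were lower and none higher in TG (20.5% and 18.5% of all genes), with a median of −0.18 against 0.01 for all genes. In bulk tissue, fewer heart muscle cells and less of these transcripts per cell cannot be told apart. Cell type markers moved with the genotype. In sedentary males the 6 fibroblast markers were all higher in TG (median log2 fold change 0.50, summed level 524 to 869 CPM against 457 to 645), as were the 6 macrophage markers (median 0.65, 150 to 253 CPM against 115 to 156). Of 6 cardiomyocyte markers, Myh6, Myl2, Tnni3 and Pln were lower, with a median over the list of −0.22 and sums of 46600 to 56200 CPM against 52900 to 63100. In trained males 3 fibroblast and 4 macrophage markers were higher and 0 cardiomyocyte markers passed (median −0.04), and all 5 blood genes were lower (median −1.22, summed level 259.6 to 554 CPM against 573 to 1112), with 0 of 5 passing in the other 3 comparisons. In sedentary females 1 fibroblast marker was higher and 0 cardiomyocyte and 0 macrophage markers passed. In trained females 3 fibroblast and 5 macrophage markers were higher and 3 cardiomyocyte markers lower (median −0.15). The 2 skeletal muscle genes measured had medians of 0.81 (sedentary) and 0.69 (trained) among males and 0.73 and 0.90 among females. Of them Mybpc2 was higher in each, and Tnni2 in trained females (summed level 36.3 to 92.7 CPM in TG and 16.9 to 41.4 CPM in nTG hearts over all groups). Of 5 endothelial markers, Cdh5 was lower in trained males. The atrial genes Myl7, Myl4 and Sln had medians of −1.17 (sedentary) and 0.29 (trained) among males and 0.48 and −0.15 among females, with 0 of 3 passing in each. With their level in the model the members lower in TG numbered 33, 17, 6 and 24 in this order, and 23.6%, 15.6%, 3.67% and 15.1% of all genes passed in either direction. Beyond that fit, the part of these markers in the members' differences was not tested.

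**Figure D2:**
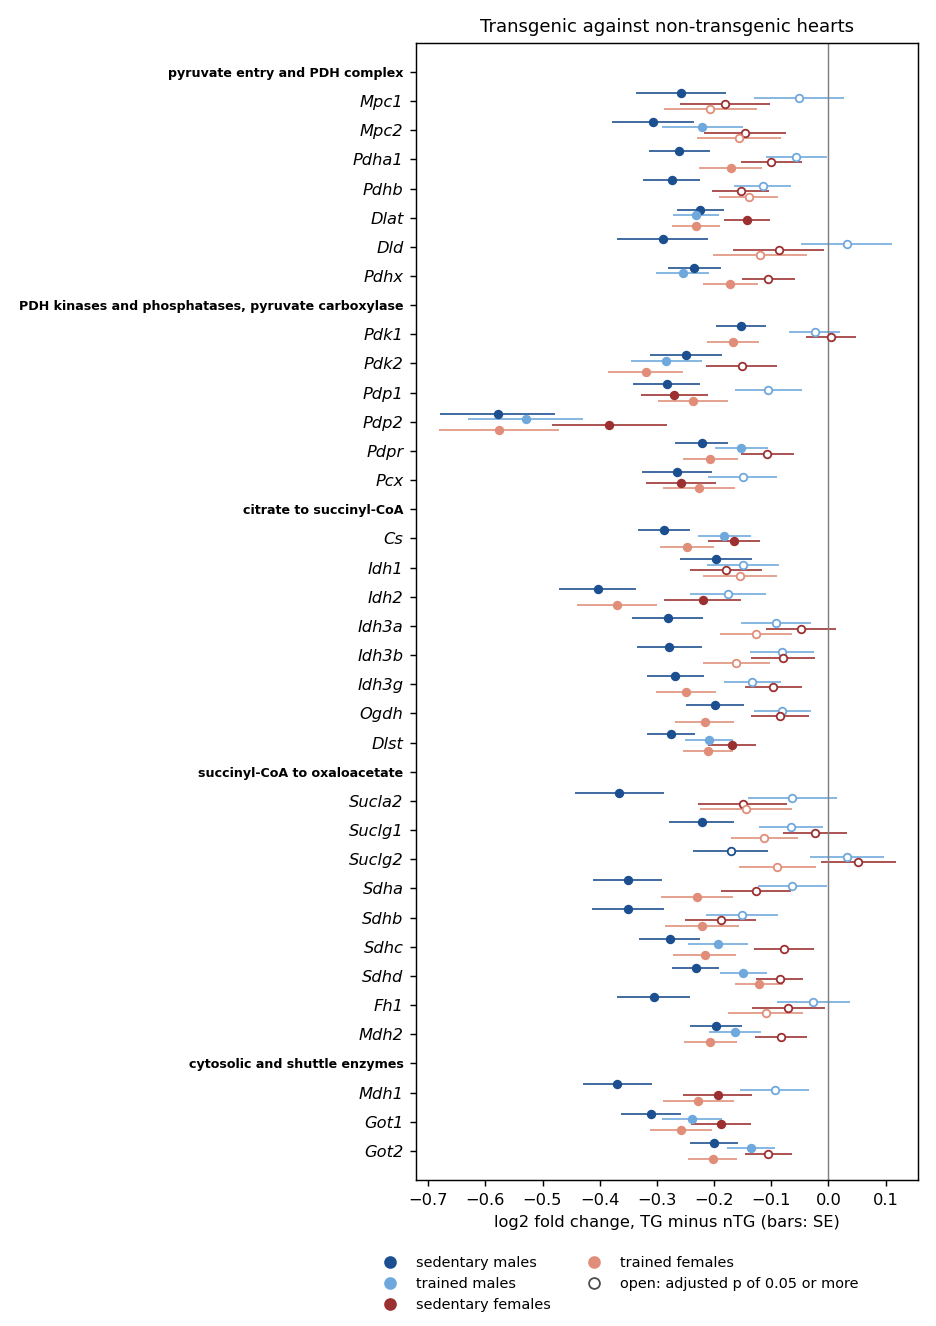
Log2 fold change, TG minus nTG, of the 33 members in the 4 combinations of sex and activity, grouped by role, with bars for the SE. Filled points have an adjusted p under 0.05. Nearly all points lie left of 0, those of sedentary males (dark blue) usually farthest, and Pdp2 farthest of all members.

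Pyruvate entry and the PDH complex came first in this order. Among males, all 7 genes of the group were lower when sedentary and 3 when trained, and among females 1 and 3. Dlat (ENSMUSG00000000168, chr9:50634633-50659780, GRCm38, whole gene), the acetyl-transferring core of the complex, had 382 to 431 CPM (median 407) in sedentary nTG males and 313 to 367 CPM (median 353) in sedentary TG males. Every TG library lay below every nTG library, and Dlat fell by 14.4%, a log2 fold change of −0.22 ± 0.04 (SE, adjusted p 4.5e-05). Dlat also passed in females, with −0.14 ± 0.04 when sedentary and −0.23 ± 0.04 when trained, and in trained males, with −0.23 ± 0.04. In sedentary females it passed in 18 of 28 other fits of the joined columns, with adjusted p up to 0.183.

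Pdhx, which anchors E3 to the core, was lower at −0.23 ± 0.05 in sedentary males. In trained males it had 111 to 128 CPM (median 117) in nTG and 82.3 to 111 CPM (median 100.02) in TG hearts, with no overlap (−0.25 ± 0.05, adjusted p 7.34e-05). In trained females it was lower at −0.17 ± 0.05, and in sedentary females it stood at −0.11 ± 0.05 (adjusted p 0.215). Pdhb, the E1 beta subunit, ran from 327 to 407 CPM (median 359) in sedentary nTG males and from 268 to 329.7 CPM (median 299) in sedentary TG males. There 8 of 9 TG libraries lay below the lowest nTG library (−0.27 ± 0.05), and in the other 3 comparisons Pdhb did not pass, with −0.11, −0.15 and −0.14. Its E1 partner Pdha1, on the X chromosome, was lower in sedentary males (−0.26 ± 0.05) and trained females (−0.17 ± 0.06). The carrier subunits were lower in sedentary males, Mpc1 at −0.26 ± 0.08 and Mpc2 at −0.31 ± 0.07, and Mpc2 also in trained males (−0.22 ± 0.07). Dld, which the PDH and 2-oxoglutarate complexes share, was lower in sedentary males (−0.29 ± 0.08) and did not pass elsewhere, with 0.03 ± 0.08 in trained males.

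Kinases, phosphatases and pyruvate carboxylase held the largest single difference. Pdp2 (ENSMUSG00000048371, chr8:104591451-104599026, GRCm38, whole gene) encodes a catalytic subunit of the phosphatase that reactivates the PDH complex. It had 58.1 to 80.1 CPM (median 69.9) in sedentary nTG males and 36.9 to 57.8 CPM (median 44.2) in sedentary TG males, and 67.7 to 86.3 CPM (median 75.0) against 33.3 to 65.8 CPM (median 51.7) in trained males. In neither pair did the groups overlap. Its log2 fold change was −0.58 ± 0.10 in sedentary males (adjusted p 2.28e-05), and it fell by 30.7% in trained males (−0.53 ± 0.10). Sedentary females had 59.5 to 75.0 CPM (median 70.3) in nTG and 48.6 to 62.3 CPM (median 52.9) in TG hearts, and trained females 50.3 to 96.5 CPM (median 74.6) and 42.4 to 57.1 CPM (median 53.3). The ranges touched, with 7 of 8 sedentary and 2 of 6 trained TG libraries below the lowest nTG library. In females it fell by 23.3% (−0.38 ± 0.10) when sedentary and stood at −0.58 ± 0.11 when trained (adjusted p 8.62e-05). Over all strata Pdp2 stood at −0.52 ± 0.05, the largest of the members, and at −0.53 to −0.48 over 75 other fits of the joined columns.

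The other phosphatase subunits were lower as well. Pdp1, the calcium-stimulated catalytic isoform, had 31.2 to 35.7 CPM (median 33.9) in sedentary nTG females and 25.1 to 30.2 CPM (median 28.0) in sedentary TG females, without overlap (−0.27 ± 0.06, adjusted p 0.00225). It was lower in sedentary males (−0.28 ± 0.06) and trained females (−0.24 ± 0.06), with −0.11 ± 0.06 in trained males. Pdpr, the regulatory subunit, was lower in every stratum but sedentary females (−0.22, −0.15 and −0.21, against −0.11). The kinases, which inactivate the complex, were lower in some strata. Pdk2 was lower at −0.25 ± 0.06 in sedentary males and −0.28 ± 0.06 in trained males. In trained females it had 471 to 567.8 CPM (median 514) in nTG and 349 to 453 CPM (median 427) in TG hearts, with no overlap (−0.32 ± 0.07, adjusted p 0.000401). Pdk1 was lower in sedentary males (−0.15 ± 0.04) and trained females (−0.17 ± 0.05) and stood at −0.02 and 0.00 elsewhere. Pcx, pyruvate carboxylase, which makes oxaloacetate from pyruvate, was lower in sedentary mice of both sexes (−0.27 ± 0.06 in males, −0.26 ± 0.06 in females) and in trained females (−0.23 ± 0.06).

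From citrate to succinyl-CoA, 8 of 8 genes were lower in sedentary and 2 in trained males, and 3 in sedentary and 5 in trained females. Cs (ENSMUSG00000005683, chr10:128337734-128362479, GRCm38, whole gene), citrate synthase, had 1212 to 1412 CPM (median 1329) in sedentary nTG males and 989.6 to 1177 CPM (median 1059) in sedentary TG males, which did not overlap. It fell by 18.1% (−0.29 ± 0.05, adjusted p 5.86e-06). In trained females, where the groups did not overlap either, it had 1186 to 1429 CPM (median 1284) against 1058 to 1113 CPM (median 1066) (−0.25 ± 0.05). It was lower in trained males (−0.18 ± 0.05) and sedentary females (−0.16 ± 0.05) too.

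Idh2 (ENSMUSG00000030541, chr7:80094846-80115392) had the largest fall of this group in every stratum but trained males, where Dlst did. Its level was 1603 to 2062 CPM (median 1819.8) in sedentary nTG males and 1234 to 1571 CPM (median 1397) in sedentary TG males, again without overlap, a fall of 24.4% (−0.40 ± 0.07, adjusted p 1.19e-05). It was lower at −0.22 ± 0.07 in sedentary females, a call made in 16 of 28 other fits (adjusted p up to 0.0974), and −0.37 ± 0.07 in trained females. In trained males, with 1048 to 1852 CPM (median 1526) in TG hearts, it stood at −0.18 ± 0.07 (adjusted p 0.0691). Dlst (ENSMUSG00000004789, chr12:85110833-85134845), the succinyl-transferring core of the 2-oxoglutarate complex, did not overlap in sedentary males, trained males or trained females. In sedentary males it had 537 to 605 CPM (median 592) in nTG and 419 to 517 CPM (median 485) in TG hearts (−0.27 ± 0.04, adjusted p 2.72e-06). Its fold changes elsewhere were −0.21, −0.17 and −0.21 in trained males, sedentary females and trained females. Ogdh, its partner, was lower in sedentary males (−0.20 ± 0.05) and trained females (−0.22 ± 0.05). Of the NAD-dependent isocitrate dehydrogenase, all 3 subunits were lower in sedentary males (Idh3a −0.28, Idh3b −0.28, Idh3g −0.27) and Idh3g in trained females (−0.25 ± 0.05). Idh1 was lower in sedentary males (−0.20 ± 0.06).

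From succinyl-CoA to oxaloacetate, 8 of 9 genes were lower in sedentary and 3 in trained males. In females 5 passed when trained and 0 when sedentary (3 at an unadjusted p under 0.05 in edgeR, as were 2767 of all 16913 genes). The succinyl-CoA synthetase pairs one alpha subunit, Suclg1, with an ATP-forming (Sucla2) or a GTP-forming (Suclg2) beta subunit. In sedentary males Sucla2 had 229 to 319 CPM (median 276) in nTG and 180.3 to 242 CPM (median 215) in TG hearts (−0.37 ± 0.08). Suclg1 was lower at −0.22 ± 0.06 and Suclg2 stood at −0.17 ± 0.07, and whether these subunits differ in their change was not tested. None of the 3 passed in another stratum. All 4 subunits of complex II, succinate dehydrogenase, were lower in sedentary males and in trained females, where Sdhd passed in 12 of 28 other fits (adjusted p up to 0.148). Sdhb, the iron-sulfur subunit, had 377 to 471 CPM (median 424) against 292 to 397 CPM (median 342) in sedentary males, where 7 of 9 TG libraries lay below the lowest nTG library (−0.35 ± 0.06, adjusted p 3.65e-05). Sdha, the flavoprotein, was lower at −0.35 ± 0.06 in the same comparison.

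Of the membrane anchors, Sdhc had 251 to 299 CPM (median 280.0) in trained nTG and 229 to 249.9 CPM (median 239) in trained TG females, with no overlap (−0.22 ± 0.06). Sdhc and Sdhd also passed in both male comparisons, with −0.28 and −0.19 for Sdhc and −0.23 and −0.15 for Sdhd. Fh1, fumarase, was lower in sedentary males (−0.31 ± 0.06) and near 0 in trained males (−0.03 ± 0.06). Mdh2, the matrix malate dehydrogenase that closes the cycle, had 786 to 933 CPM (median 900.0) in sedentary nTG and 694 to 848 CPM (median 749) in sedentary TG males, which overlapped (−0.20 ± 0.05, adjusted p 0.000944). Mdh2 was also lower in trained males (−0.16 ± 0.04) and in trained females (−0.21 ± 0.05), where no TG library reached the nTG range.

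Of the cytosolic and shuttle enzymes, Got1 and Got2 transaminate aspartate and oxaloacetate in the cytosol and the matrix. Got1 (ENSMUSG00000025190, chr19:43499752-43524605) had 589 to 665 CPM (median 634) in sedentary nTG and 431 to 566 CPM (median 516) in sedentary TG males, without overlap. It fell by 19.4% (−0.31 ± 0.05, adjusted p 1.34e-05), by 15.3% in trained males, and by 12.2% and 16.4% in sedentary and trained females. Got2 was lower in sedentary males (−0.20 ± 0.04), trained males (−0.14 ± 0.04) and trained females (−0.20 ± 0.04). Mdh1 had 674 to 881 CPM (median 748) against 542 to 669 CPM (median 605) in sedentary males, with no overlap (−0.37 ± 0.06, adjusted p 7.8e-06). It passed in both female comparisons (−0.19 and −0.23) and stood at −0.09 ± 0.06 in trained males. Its call in sedentary females was made in 13 of 28 other fits (adjusted p up to 0.156).

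Counted over the members, every TG library lay below every nTG library for 8 of 33 in sedentary and 3 in trained males (1.3% and 1.29% of all genes). In females it did so for 1 when sedentary and 11 when trained (0.284% and 2.04%). In trained females these included Idh3b, which did not pass the threshold (−0.16 ± 0.06, adjusted p 0.0512). Without trained TG male 4, sedentary nTG female 4 and sedentary TG female 7, the members lower in TG numbered 33 and 11 in sedentary and trained males, and 21 and 25 in females, with 22.5%, 11.5%, 8.43% and 16.4% of all genes passing in either direction. Without all 6 libraries named above they numbered 33, 12, 23 and 24 in the same order (20.9%, 11.8%, 8.79% and 14% of all genes). The count in sedentary females moved most, from 9 to 21 and 23, and it was 20 with limma's voom and sample quality weights (7.5% of all genes). Leaving out single mice took it from 9 to 4 without TG female 8 (3.32% of all genes), and to 5 without nTG female 6 or 7 (3.96% and 3.09%). All other fits of the joined columns made 31 of the 32 calls in sedentary males and 6 of the 13 in trained males. In females they made 4 of the 9 when sedentary and 18 of the 22 when trained.

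The genotype difference was set against sex and training by interaction terms. In edgeR, 0 of the 33 members and 0% of all genes passed for a difference between sexes among sedentary mice. At an unadjusted p under 0.05 there were 12 members and 1471 of 16913 genes, and 0 members passed by DESeq2 or voom. All 33 terms had the sign of a smaller fall in females, with a median of 0.16 (0.01 for all genes). Among trained mice 0 members passed (0% of all genes, 0 members by DESeq2 or voom), with a median of −0.07. There 2 members and 910 of 16913 genes had an unadjusted p under 0.05 in edgeR. That sedentary males had 32 calls and sedentary females 9 is therefore not shown to be a difference between the sexes.

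**Figure D3:**
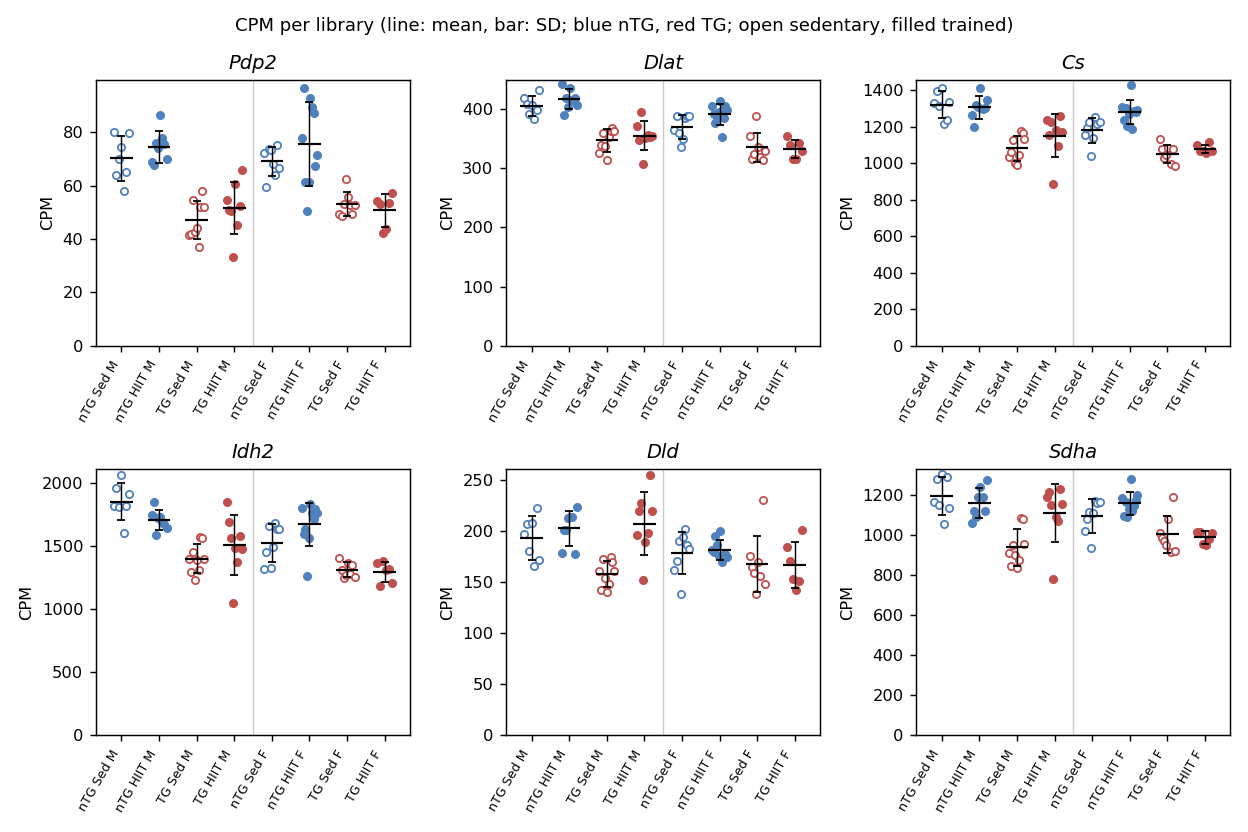
CPM of Pdp2, Dlat, Cs, Idh2, Dld and Sdha in each of 64 libraries, by group, with lines for the mean and bars for the SD. Blue is nTG and red TG, open symbols are sedentary and filled ones trained. For Pdp2 no TG library reaches the lowest nTG library of the same activity among males, while Dld and Sdha of trained TG males overlap the trained nTG males.

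Because the members moved together, their promoters were read from RefSeq (GRCm38.p6), where 30 of the 33 had an entry, as windows from 250 bases before to 50 after the start. Short motifs were searched on both strands and are a description only. The ETS core CCGGAAG occurred in 6 of 30 members (20%; Mpc1, Idh3b, Idh3g, Dlst, Sdhb and Sdhd), and in 9.93% of all 27025 genes with a promoter. The E-box CACGTG occurred in 5 (16.7%; Pdk2, Pdp2, Pdpr, Pcx and Ogdh), and in 8.09% of all genes. The oestrogen-related receptor element TCAAGGTCA occurred in 1 (Sdhd, after the start) and in 0.466% of all genes, and the short form AAGGTCA, which that element contains, in 3 (10% against 5.38%). The NRF1 core GCGCATGCG occurred in 1 (Ogdh, 3.33% against 1.95%), and the YY1 core AAGATGGCG in 1 (Idh3g, 3.33% against 1.64%). The 250 bases before the start are shown for Pdp2, the member with the largest difference, and for Idh3g and Sdhd, 2 of the 3 members that hold more than 1 of the motifs. The third, Ogdh, with the E-box, the NRF1 core and the short form, is not shown. Capitals mark the E-box in Pdp2 (chr8:104591222-104591471, plus strand), the YY1 and then the ETS core in Idh3g (chrX:73786898-73787147, minus strand) and the ETS core in reverse in Sdhd (chr9:50603850-50604099, minus strand), each written 5' to 3' along the gene.
Pdp2: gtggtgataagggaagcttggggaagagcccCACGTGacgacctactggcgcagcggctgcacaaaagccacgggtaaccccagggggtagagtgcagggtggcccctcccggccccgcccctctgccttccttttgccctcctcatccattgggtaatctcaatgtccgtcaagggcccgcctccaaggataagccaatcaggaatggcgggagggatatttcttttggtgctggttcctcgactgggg
Idh3g: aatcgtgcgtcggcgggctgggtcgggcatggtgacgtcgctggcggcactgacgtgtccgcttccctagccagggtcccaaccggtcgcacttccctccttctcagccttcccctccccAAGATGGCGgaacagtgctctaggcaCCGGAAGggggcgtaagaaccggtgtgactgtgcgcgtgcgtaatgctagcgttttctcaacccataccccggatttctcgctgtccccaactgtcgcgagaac
Sdhd: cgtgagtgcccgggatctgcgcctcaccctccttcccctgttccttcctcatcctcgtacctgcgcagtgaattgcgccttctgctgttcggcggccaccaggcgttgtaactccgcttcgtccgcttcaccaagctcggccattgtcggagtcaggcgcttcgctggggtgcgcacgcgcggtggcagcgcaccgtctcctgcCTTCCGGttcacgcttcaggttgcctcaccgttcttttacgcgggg

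A further question is what interval training changes within a genotype. In TG males 17 of 33 members were higher after training and none lower (10.3% and 7.6% of all genes), with a median log2 fold change of 0.15 against 0.00 for all genes. Dld (ENSMUSG00000020664, chr12:31331277-31351453) had 140.4 to 174 CPM (median 160.3) in sedentary and 152 to 254 CPM (median 209) in trained TG males. Of the trained libraries, 7 of 8 lay above the highest sedentary one, and Dld rose by 31.1% (0.39 ± 0.08, adjusted p 0.00133). Idh3a had 229 to 315 CPM (median 282) in sedentary and 266 to 381 CPM (median 338) in trained TG males, with 7 of 8 above the sedentary range (0.30 ± 0.06, adjusted p 0.00137). Pdha1 had 604 to 723 CPM (median 662) and 589 to 878 CPM (median 804), with 7 of 8 above that range (0.23 ± 0.05, adjusted p 0.00268). In each of these 3 genes the ranges overlapped through trained TG male 4, the lowest of its group.

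The genes that rose lay in every role. In pyruvate entry and the PDH complex they were Mpc1, Pdha1, Pdhb and Dld, among regulators Pdk1 (0.14) and Pdp1 (0.16), and from citrate to succinyl-CoA Idh1, Idh3a, Idh3b and Dlst. From succinyl-CoA to oxaloacetate they were Sucla2 (0.33 ± 0.08), Sdha (0.24 ± 0.06), Fh1 (0.22 ± 0.06), Suclg1 and Suclg2, and among shuttle enzymes Mdh1 (0.26 ± 0.06) and Got1 (0.22 ± 0.05). Of the 17 calls, 9 were made in all 29 other fits, while Pdp1 was called in 12, Dlst in 13, Idh3b in 17 and Mpc1 and Suclg2 in 18. Members that did not pass included Dlat (0.03 ± 0.04), Pdk2 (−0.04 ± 0.06), Pcx (0.02 ± 0.06), Cs (0.09 ± 0.04), Ogdh (0.05 ± 0.05) and Mdh2 (0.02 ± 0.04). Pdp2 stood at 0.14 ± 0.10 (adjusted p 0.348).

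The 3 comparisons among males share libraries, so their values are set side by side and not counted against each other. Dld was at −0.29 in TG against nTG when sedentary, 0.39 in trained against sedentary TG, and 0.03 in TG against nTG when trained. In the same order Sucla2 was at −0.37, 0.33 and −0.06, and Sdha at −0.35, 0.24 and −0.06. Dlat was at −0.22, 0.03 and −0.23, and Pdp2 at −0.58, 0.14 and −0.53. The term for a training response that differs by genotype in males passed for 0 members in edgeR (0% of all genes), with 14 at an unadjusted p under 0.05 (2503 of 16913 genes). Members called numbered 0 by DESeq2 and 6 by voom (Pdha1, Dld, Sucla2, Sdha, Fh1 and Mdh1), which called 1.77% of all genes. In edgeR 9 passed without trained TG male 4, sedentary nTG female 4 and sedentary TG female 7 (2.94% of all genes) and 10 without all 6 libraries (3.44%). With 1 library left out at a time, trained TG male 4 among them, 0 members passed in each of 32 fits. Leaving out that low trained TG male raises this term by construction, so the counts of 9 and 10 are no support for it. Its value in the fit of all libraries was 0.32 ± 0.11 for Dld and −0.01 ± 0.06 for Dlat.

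**Figure D4:**
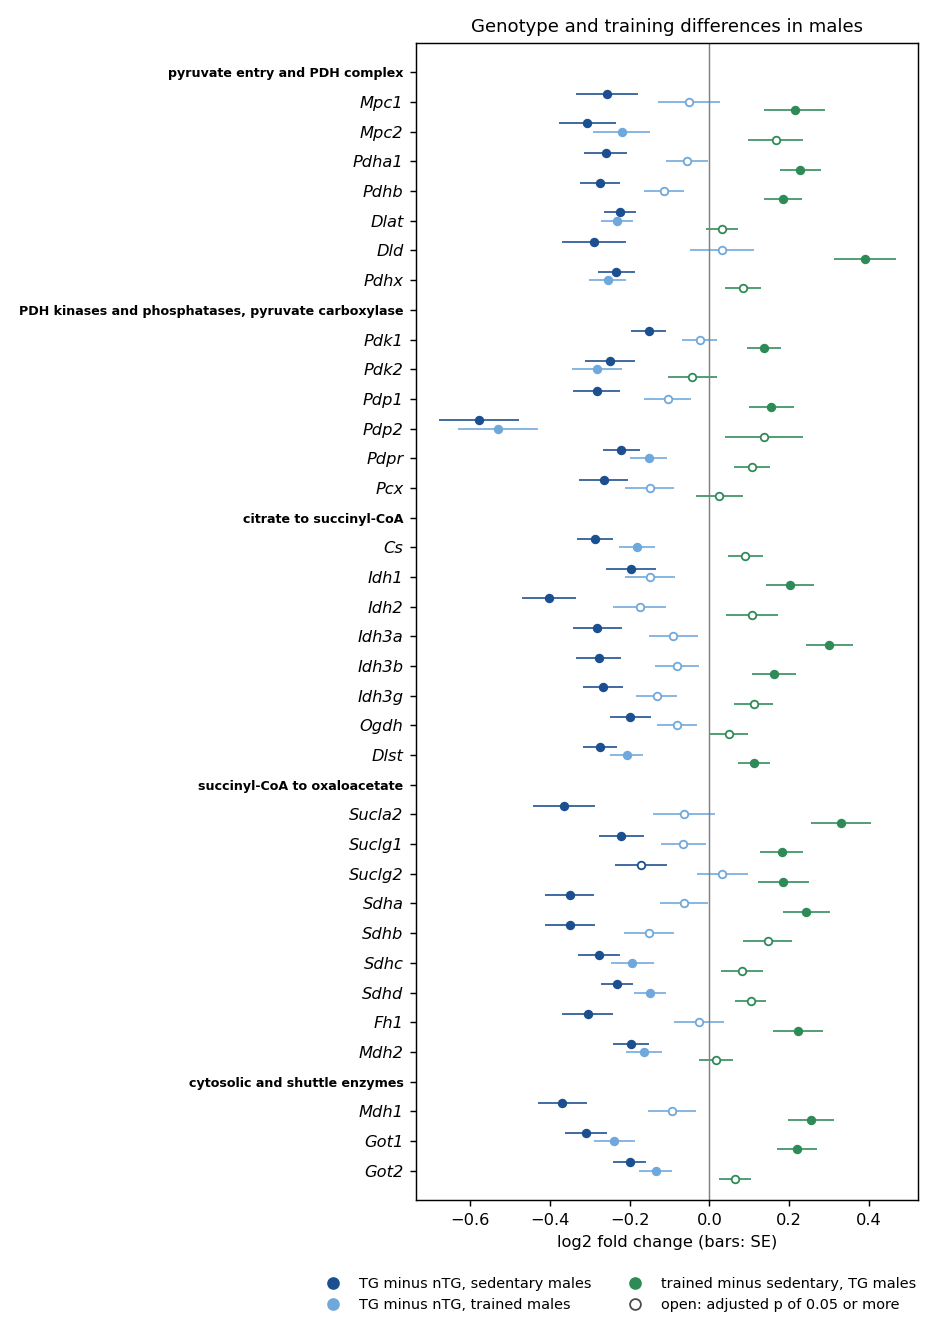
Log2 fold changes with SE of the 33 members in males, for TG against nTG hearts when sedentary (dark blue) and when trained (light blue) and for trained against sedentary TG hearts (green). Filled points have an adjusted p under 0.05. The green points of Dld, Sucla2 and Idh3a lie farthest right, those of Dlat, Pdk2, Pcx and Mdh2 near 0. Comparisons that share a group are not independent.

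The count of 17 depended on single mice. It was 25 without trained TG male 4, 11 without trained TG male 7 and 10 without sedentary TG male 6, where 24%, 10.1% and 13% of all genes passed in either direction. Without trained TG male 4, sedentary nTG female 4 and sedentary TG female 7 it was 27 (26% of all genes in either direction), without all 6 libraries named above it was 24 (22.5%), and without the 3 libraries richest in blood RNA, sedentary TG male 5 among them, it was 11 (14%). Markers of other cells also moved between sedentary and trained TG males, with 5 of 5 blood genes (median −1.45), 3 of 6 macrophage and 2 of 6 fibroblast markers lower and 2 of 6 cardiomyocyte markers, Ryr2 and Pln, higher. Endothelial Cdh5 and Tie1 and the pericyte gene Pdgfrb were lower. The 3 atrial genes had a median of 1.12 (0 passed), and 21 members rose with their level in the model (20.3% of all genes in either direction). Beyond these fits, the part of the markers in the result was not tested.

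In TG females 0 members passed in edgeR after training, 0 at an unadjusted p under 0.05 (606 of 16913 genes) and 0 by DESeq2 or voom, with a median of 0.00, and 0% of all genes passed in either direction. Dld stood at −0.01 ± 0.09 (95% interval −0.17 to 0.16) and Sdha at −0.02 ± 0.07 (−0.15 to 0.11), where the values in TG males were 0.39 and 0.24. The term for a training response of TG hearts that differs by sex passed for 0 members in edgeR (0% of all genes), with 12 at an unadjusted p under 0.05 (3063 of 16913 genes). It passed for 1 member by DESeq2 (Dld, with 0.981% of all genes) and 10 by voom (5.48%). Its value for Dld, female minus male, was −0.40 ± 0.12 (adjusted p 0.0973), and 8 members passed without trained TG male 4 (2.72% of all genes). That was the highest count over 31 fits leaving out single libraries, of which 3 gave any call. Leaving out this low trained male enlarges the term by construction, so the count is no support for it. For the same term the 3 atrial genes had a median of −1.88 (0 passed), and with their level in the model 1 member passed (Dld, with 0.715% of all genes).

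In nTG males 0 members passed in edgeR (0% of all genes) and 0 by DESeq2 or voom, with a median of 0.01. An unadjusted p under 0.05 was found in edgeR for 3 members and 999 of 16913 genes. In nTG females 0 passed, with 14 at an unadjusted p under 0.05 (2406 of 16913 genes), 1 by DESeq2 (0.562% of all genes) and 0 by voom, where in edgeR 0.124% of all genes were higher and 0.0237% lower. The gene that DESeq2 called there was Got1, which edgeR gave 0.18 ± 0.05 (adjusted p 0.125). The median of the members in nTG females was 0.09 and 31 of 33 values were above 0. A training response that differs by genotype in females passed for 0 members in edgeR (0% of all genes) and 0 by DESeq2 or voom. There 2 members and 1093 of 16913 genes had an unadjusted p under 0.05 in edgeR.

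Sedentary nTG hearts also differed by sex. In females 7 members were lower than in males and none higher (1.37% and 0.846% of all genes), with a median of −0.14. Pdpr had 151 to 173 CPM (median 162) in males and 114 to 146 CPM (median 136) in females, without overlap (−0.29 ± 0.05, adjusted p 7.9e-05). Pdhx had 99.3 to 121 CPM (median 110.2) and 79.6 to 107 CPM (median 93.5), with 6 of 8 female libraries below the lowest male one (−0.24 ± 0.05). Idh2 had 1603 to 2062 CPM (median 1819.8) and 1317 to 1687 CPM (median 1566), with 4 of 8 below the lowest male (−0.28 ± 0.07). Ogdh, Dlst, Sdhd and Mdh2 were lower at −0.20, −0.15, −0.16 and −0.16. Of the 7 calls by sex, 1 was made in all 27 other fits, while Idh2 was called in 26, Ogdh in 20, Dlst in 16 and Mdh2 in 15. Pdp2, with the largest genotype difference, stood at −0.02 ± 0.10. Leaving out single mice gave 2 members (without nTG female 4, 1.21% of all genes in either direction) to 9. Atrial genes differed between these groups by a median of −1.14 (0 of 3 passed), and with their level in the model 12 members passed (4.25% of all genes). Of 6 fibroblast markers Lum was higher in females (median of the list 0.30), and of 6 cardiomyocyte markers Actn2 was lower (median −0.07). The 6 macrophage markers had a median of 0.305, with 0 passing. Beyond the atrial fit, the part of these markers was not tested.

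Genes around these steps were followed as a further list of 35, with cofactor, transport, assembly and anaplerotic roles. In males 13 were lower and 2 higher in TG when sedentary, and 13 and 1 when trained. Females had 6 and 1 when sedentary and 13 and 0 when trained. The shares of all genes lower and higher were 11.2% and 9.39%, 8.31% and 5.65%, 2.78% and 1.58%, and 9.43% and 5.37% in this order. Sirt3, a mitochondrial deacetylase, was lower in all 4 (−0.17, −0.33, −0.19 and −0.28, in the order just given), as were Adhfe1, Glud1 (glutamate dehydrogenase) and the aspartate-glutamate carriers Slc25a12 and Slc25a13. Slc25a11, the oxoglutarate-malate carrier of the shuttle, passed in all but sedentary females (−0.26, −0.25 and −0.23). Gpt, which makes pyruvate from alanine, did so too (−0.34, −0.42 and −0.39).

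In the other direction, Slc25a22, a mitochondrial glutamate carrier, was raised in TG males by 0.49 ± 0.10 when sedentary and 0.28 ± 0.10 when trained, and in sedentary females by 0.54 ± 0.10. The citrate carrier Slc25a1 was higher in sedentary males (0.28 ± 0.10). Pdk4, the PDH kinase that fasting induces, varied widely between mice and passed in none (−0.24 ± 0.26, −0.10 ± 0.26, 0.10 ± 0.26 and −0.62 ± 0.27). The list's median was −0.15, −0.09, −0.08 and −0.11, where that of the members was −0.27, −0.14, −0.13 and −0.21. After training in TG males 6 of the 35 were higher and none lower (10.3% and 7.6% of all genes), among them Gpt2 (0.22 ± 0.07). In nTG females against males 3 were lower (1.37% of all genes), among them Glud1 and Slc25a11.

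Some counts can hold reads of other genes. Mpc1 and Got2 each have a named pseudogene, and 6 members (Mpc1, Pdha1, Pdpr, Idh3b, Mdh1 and Got2) have exons that overlap a gene on the opposite strand, whose reads cannot be told apart unless the counting used strand, which is not given in the sources used here.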

How the data were processed

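Gene counts, deposited by the authors for 16913 genes under Ensembl identifiers, were raw whole-number counts, and the deposited lncRNA table held expected counts (estimated counts) for 3787 transcripts, used only to match columns. The submitters' processing notes name STAR 2.7.8a, RSEM 1.3.3, cutadapt 2.3, FastQC 0.11.8 and MultiQC 1.7 and the build GRCm38 (mm10). The role of each tool, the annotation and the strand setting are not given in the sources used here. Symbols and positions came from GENCODE M21 (16887 identifiers matched).

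Columns were matched by Pearson's r of centred log2 CPM (pseudocount 0.5, mean of at least 20 counts, 389 autosomal transcripts). Counts were tested with edgeR 4.0.16 (quasi-likelihood F test, TMM, 8 group means in 1 model of 64 libraries, Benjamini-Hochberg over all genes, threshold 0.05). The filter filterByExpr kept all 16913 genes and so all 33 members. SE is the absolute log2 fold change over the root of F, and 95% intervals are 1.96 SE. Alternatives were DESeq2 1.42.0, limma 3.58.1 with voom and sample quality weights, other scalings and filters, fewer groups, a replicate block, leaving out libraries, and an atrial covariate. Fits were tested on simulated data.

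All 33 members are counted in each comparison. Named with library values are the 3 per role with the smallest p for the mean genotype effect, at most 3 per training or sex comparison that passed, and a few others chosen after their values were seen. Members and lists were chosen with earlier results of these data known. Labels number the mice, and p-values measure the spread between them. Values of some genes of the further list are not reported here.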

Additional observations from a re-analysis of the deposited data

Results flagged for a closer look

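Some libraries lay far from the rest of their group for members described in full. A value is given here where its gap to the nearest other library, relative to the range of the group, passed Dixon's 95% critical value. Of 152 sets of values searched 19 did so, where chance at 1 in 20 would give 7.6.

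Trained TG male 4 was the low library in 8 of them. It had 285.7 CPM of Pdhb where the other 7 trained TG males had 338.4 to 372, 421 CPM of Dlst (others 513 to 581), 885 CPM of Cs (others 1092 to 1255) and 609.6 CPM of Mdh2 (others 750.4 to 877). It also had 186 CPM of Sdhc (others 243 to 277), 552 CPM of Mdh1 (others 702 to 768), 266 CPM of Idh3a (others 330.2 to 381) and 589 CPM of Pdha1 (others 744 to 878.5). Its fibroblast, cardiomyocyte and atrial marker levels stand with the description of the libraries, and their part in these values was not tested.

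Sedentary nTG female 4 was low in Got1 (493.2 CPM, others 580.2 to 643), Mdh1 (588 CPM, others 705 to 768) and Idh3a (260.4 CPM, others 316 to 352). Sedentary TG female 7 was high in Dld (229.8 CPM, others 138 to 175), Idh3a (386 CPM, others 272 to 317) and Pdha1 (829.2 CPM, others 647 to 718). The remaining 5 were single genes. Pdp1 was high in trained TG female 6 (35.2 CPM, others 26.9 to 29.8), Dlst in trained nTG male 5 (651 CPM, others 581 to 604) and Cs in trained nTG female 6 (1429 CPM, others 1186 to 1309). Sdhc was high in sedentary TG female 4 (265 CPM, others 226 to 243), and Idh2 was low in trained nTG female 4 (1263 CPM, others 1565 to 1839).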

How the results depend on the processing

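The joined columns decide the results. With gene columns by name, 0 members passed in each of the 15 comparisons, and small values of the other sign appeared for Dlat (0.0055), Pdhx (0.0305) and Pdhb (0.007) in the mean genotype effect, for Dld (−0.045), Idh3a (−0.1163) and Pdha1 (−0.0371) after training of TG males, and for Pdhx (0.0222) and Idh2 (0.1089) between the sexes. With joined columns no alternative run turned the sign of a member's call. Values that did not pass could change sign, as for Dld by genotype in trained males (−0.0164 to 0.0855), Mdh2 after training of TG males (−0.012 to 0.0489) and Pdp2 by sex. Fits of only the groups compared, with fewer samples, called 7 members lower in TG in trained males, 5 in sedentary females, 11 higher after training in TG males and 2 by sex. The shares of all genes passing in those fits are not reported here, so these counts cannot be set against them. Voom called 20 for genotype in sedentary females, 6 for genotype by training in males and 10 for training by sex in TG mice. DESeq2 called 1 for training in nTG females and 1 for training by sex. Without the 3 libraries that stood apart (an alternative chosen after seeing the data, like the next ones), the counts were 21 for genotype in sedentary females, 27 for training in TG males and 9 for genotype by training in males. Without all 6 libraries lowest or highest in 19 or more members they were 23, 24 and 10. Without the 3 libraries richest in blood RNA 11 rose with training in TG males. With an atrial covariate 12 passed by sex and 1 for training by sex. Where the cause of a move is not named here, the cause was not tested.

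Leaving out each library in turn gave 31 to 33 members for genotype in sedentary males, 10 to 16 in trained males, 4 to 12 in sedentary females, 19 to 24 in trained females and 32 for the mean. It gave 10 to 25 for training in TG males, 0 to 8 for training by sex in TG mice and 2 to 9 for sex. In the other comparisons it gave 0. The share of all genes passing moved too and is not given here for each fit. For training in TG males it was 10.1% without trained TG male 7 and 24% without trained TG male 4. For sex, the low counts came without nTG female 1 (3), 3 (4) or 4 (2) and without nTG male 2 (3), 4 (4) or 7 (3). For training by sex, where the fit of all libraries gave 0, the high counts of 4 to 8 came without sedentary TG female 4, trained TG female 6 or trained TG male 4.

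Same replicate numbers did not mark related samples, with a median correlation of 0.0103 for the same number against −0.000472 for others, and 7 of 64 libraries correlated best with their own number. With the replicate number as a replicate block the counts for genotype were 33 and 14 in sedentary and trained males, 11 and 19 in such females, 32 for the mean, 19 for training in TG males, 9 for sex and 0 elsewhere. The shares of all genes passing with the block are not reported here, so its counts cannot be set against them. A fit of only the groups compared was not run for the mean, which uses all groups. With median-of-ratios size factors the median log2 fold change of all genes lay at most 0.0127 from 0 in any comparison. With scaling that left out mitochondrially encoded genes it lay at most 0.0163 from 0. Members had mean counts of 1363 or more, so the spread between mice, not depth, limits precision.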
